A study of Mus musculus with 12 samples.

Results

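The BCL2 family is described here through 10 of its genes, taken by symbol from the gene table of the study: Bcl2, Bcl2l1, Mcl1, Bax, Bak1, Bok, Bid, Bad, Bcl2l11 and Bmf. All 10 were found among the 39331 gene entries, and all 10 passed the filter on low counts that left 15602 genes. RNA was sequenced from heart tissue of untreated C57BL/6N mice aged 9 months, as 6 wild type libraries (WT 1 to 6) and 6 Lemd2 p.L13R knock-in libraries (KI 1 to 6). The knock-in replaces a leucine of LEMD2, which sits in the inner membrane of the nucleus, by arginine, and the sources used here do not say whether on 1 or on both alleles. Titles give each library its own numbers without saying what they count, and those of KI 1 and KI 2 join 2 numbers, so more than 1 sample may have entered these libraries. Both groups share strain, age and the absence of treatment.

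BCL2 family proteins decide whether the outer membrane of the mitochondrion stays closed. Antiapoptotic members (BCL2, BCL-XL from Bcl2l1, and MCL1) hold the pore-forming members (BAX, BAK and, in part, BOK) in check, and BH3-only members (BID, BAD, BIM from Bcl2l11, and BMF) relay death signals by binding to either kind. Once BAX or BAK opens the membrane, cytochrome c leaves the mitochondrion and the apoptosome activates caspases. In heart muscle, which renews its cells little, MCL1 and BCL-XL are known to be needed for survival and for normal mitochondria.

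Total counts ranged from 38.3 to 44.6 in WT and from 27.9 to 42.9 in KI, in units of 1000000, and the 10 members drew between 45 counts (Bid) and 8398 counts (Mcl1) in a library. Levels are given as CPM, counts per 1000000 scaled by TMM, a method that sets the bulk of genes equal between libraries. Fold changes are KI over WT on the log2 scale with standard errors (SE), from the edgeR quasi-likelihood test across all 15602 genes, called at a Benjamini-Hochberg adjusted p under 0.05. Lemd2 itself lay at 24.0 to 29.2 CPM in WT and 17.3 to 24.7 CPM in KI (-0.36, SE 0.09, adjusted p = 0.0213), and a gene count cannot show the substitution. Genes of the mitochondrial chromosome took 34.05% to 40.4% of the counts in WT and 30.9% to 33.9% in KI (exact permutation test, two-sided p = 0.00217, adjusted over 2 library measures p = 0.00433, n = 6 each). Ventricular cardiomyocyte markers were abundant in every library, with a summed level of 50890 to 57640 CPM in WT and 45920 to 56300 CPM in KI.

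Bcl2 was the 1 member called, and it rose in KI. No other member passed the threshold, so 1 of 10 members was higher and 0 were lower, where edgeR called 8.75% of all genes tested (4.41% higher and 4.34% lower). That share is near the background. At an unadjusted p under 0.05 the count was 7 of 10 members, against 25.8% of all genes tested. Of the 10 fold changes 9 were positive, with Bcl2l11 the 1 negative, where 8233 of all 15602 genes tested were positive, and their median was 0.22 against 0.01 over all genes tested. None of the 10 members had KI libraries wholly apart from WT libraries, which was seen for 4.36% of all genes tested.

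**Figure D1:**
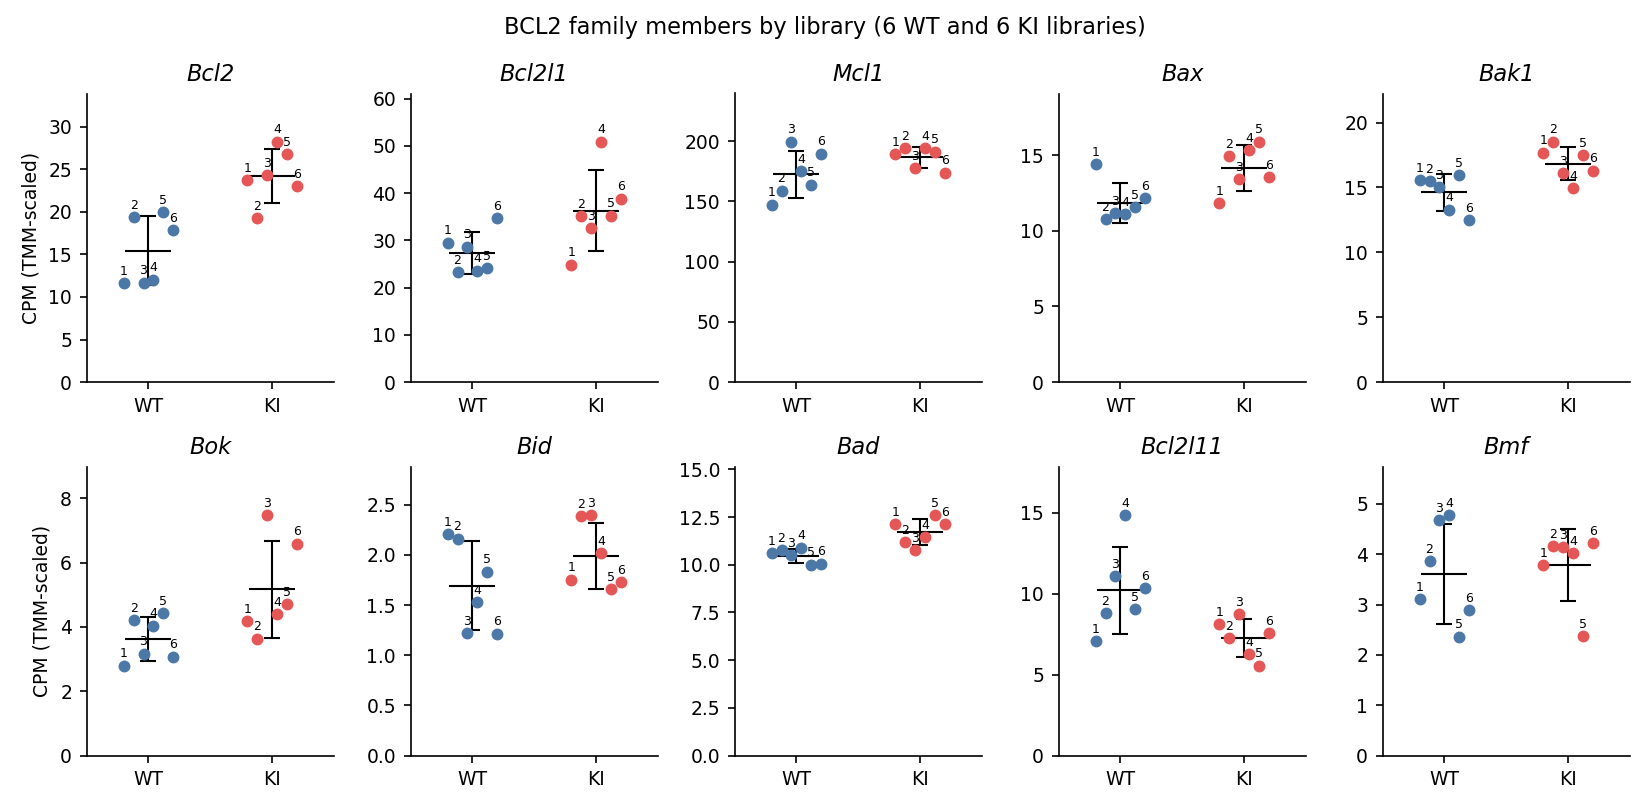
Level of each member in CPM (vertical axis, from 0) in the 6 WT and 6 KI libraries (points, numbered by replicate), with mean and SD. For Bcl2, 5 of 6 KI points lie above all WT points, and for Bcl2l11 all 6 KI points lie below the WT mean.

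Among the antiapoptotic genes, Bcl2 (Gene ID 12043), on the minus strand of chromosome 1 from 106538176 to 106714290 in GRCm38.p6, encodes the founding member of the family. Its level in WT was 11.7 CPM at the lowest, 14.9 at the median and 19.96 at the highest. In KI it was 19.3 CPM at the lowest, 24.0 at the median and 28.2 at the highest. WT 1, 3 and 4 lay together near the bottom and WT 2, 5 and 6 higher, and only KI 2 fell inside the WT range. The mean rose from 15.4 ± 4.04 to 24.2 ± 3.13 CPM (SD, n = 6 each), a log2 fold change of 0.65 (SE 0.15, 95% interval 0.33 to 0.98, adjusted p = 0.0208). The call held in all 12 fits that left out 1 library, with adjusted p values from 0.0162 to 0.0485. It did not hold when KI 3, 4 and 5 were left out (0.51, SE 0.19, adjusted p = 0.207), where 0.563% of all genes tested were called. Those 3 libraries alone gave 0.76 (SE 0.19, adjusted p = 0.0242), where 12.4% of all genes tested were called. Without genes of the mitochondrial chromosome, whose share was lower in KI, Bcl2 was at 0.65 (SE 0.15, adjusted p = 0.0213). KI 3, 4 and 5 carry consecutive numbers, and their column names end in a 9m tag, where those of KI 2 and KI 6 end in old and new. The sources used here do not explain these tags, and all titles give the same age.

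The 250 bases before the start of Bcl2 and of Bcl2l11 are shown because these members had the smallest p values and fold changes of opposite sign. Both are from RefSeq, build GRCm38.p6, chr1:106714291-106714540 on the minus strand and chr2:128125788-128126037 on the plus strand, written 5′ to 3′ with motif matches in capitals.
Bcl2: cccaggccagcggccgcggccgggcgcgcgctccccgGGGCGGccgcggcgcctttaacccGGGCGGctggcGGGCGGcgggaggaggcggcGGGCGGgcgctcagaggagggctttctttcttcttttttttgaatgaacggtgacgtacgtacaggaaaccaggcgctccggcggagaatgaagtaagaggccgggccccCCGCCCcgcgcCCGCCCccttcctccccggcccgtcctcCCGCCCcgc
Bcl2l11: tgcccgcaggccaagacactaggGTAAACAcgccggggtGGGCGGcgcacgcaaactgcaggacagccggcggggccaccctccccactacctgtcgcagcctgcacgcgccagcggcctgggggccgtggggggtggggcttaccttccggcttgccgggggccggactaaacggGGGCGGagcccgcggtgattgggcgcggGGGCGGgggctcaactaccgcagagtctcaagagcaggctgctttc
The capitals in Bcl2 are 7 matches to the GC box (GGGCGG on either strand), bound by SP family factors, between bases -213 and -4 counted from the start as 0. In Bcl2l11 the first run of capitals is a match to the FOXO motif GTAAACA at bases -227 to -221, and the other 3 are GC boxes. No matches overlap. GC made up 74.8% of the Bcl2 window and 72.0% of the Bcl2l11 window, where the median of 32851 promoter windows of this length was 52.4%. A match is a description of the letters and not evidence of binding.

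Markers of other cell types were set beside Bcl2, since in bulk tissue fewer cells of a type and less RNA per cell cannot be told apart. Lymphocytes are known for high Bcl2, and their markers stayed low: the 5 B cell markers summed to 3.26 to 6.86 CPM in WT and 3.08 to 6.93 CPM in KI, with 0 of 5 called by edgeR. The 6 T cell markers, of which 2 passed the filter, summed to 1.32 to 3.13 CPM in WT and 1.42 to 2.38 CPM in KI. Fibroblast markers were also higher in KI, with 6 of 10 called higher. Their summed level was 802 to 1066 CPM in WT against 1057 to 1888 CPM in KI. The sums of KI 1 to 6, in that order, were 1462, 1186, 1382, 1273, 1057 and 1888 CPM. Bcl2 in the same libraries was at 23.75, 19.3, 24.3, 28.2, 26.8 and 23.0 CPM. Atrial cardiomyocyte markers, of which 3 of 6 were tested, had 2 higher, with sums of 40.6 to 383.5 CPM in WT and 202 to 2321 CPM in KI. Most of the sum in every library was Nppa (35.2 to 377.5 CPM in WT and 195 to 1836 CPM in KI). Myl4 lay at 3.08 to 4.61 CPM in WT and at 4.03 to 5.31 CPM in KI 1 to 5, but at 222.9 CPM in KI 6. Dkk3 was also highest in KI 6, at 64.5 CPM. Of the 10 ventricular cardiomyocyte markers 2 were lower. The 8 macrophage markers, with 0 called by edgeR, had a median log2 fold change of 0.32. Their sums were 162 to 263.5 CPM in WT and 189 to 274 CPM in KI. Endothelial, smooth muscle and pericyte, and neutrophil markers also had 0 called, with medians of 0.05, 0.01 and -0.03. Adipocyte markers, of which 1 of 5 was tested and not called, summed to 16.2 to 18.2 CPM in WT and 18.2 to 73.6 CPM in KI, the highest in KI 6. No marker in these lists was at 0 in every library. The part of these cell types in the Bcl2 result was not tested.

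Bcl2l1 (Gene ID 12048, chromosome 2), which encodes BCL-XL, had levels in WT of 23.3 CPM at the lowest, 26.4 at the median and 34.8 at the highest. In KI the levels were 24.8, 35.2 and 50.9 CPM. KI 4 was the highest library and KI 1 lay inside the WT range near its lower end. Relative to WT this was a log2 difference of 0.41 (SE 0.15, adjusted p = 0.0964). Without KI 4 it was 0.29 (adjusted p = 0.199), and without KI 1 it was 0.49 (adjusted p = 0.0351), which is past the threshold. Bcl2l1 is abundant in red cell precursors, whose 7 markers (0 of 6 tested were called by edgeR) summed to 552 to 1158 CPM in WT and 567 to 1439 CPM in KI. Their part in the Bcl2l1 values was not tested.

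Mcl1 (Gene ID 17210, chromosome 3) encodes the short-lived antiapoptotic protein MCL1. Its levels were 147, 169 and 199.6 CPM in WT and 174, 190.1 and 194 CPM in KI (lowest, median and highest). All 6 KI libraries lay inside the WT range, and the log2 fold change was 0.12 (SE 0.07, 95% interval -0.04 to 0.27, adjusted p = 0.325).

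The pore-forming genes each had a positive fold change with an adjusted p between 0.0825 and 0.0980. Bax (Gene ID 12028, chromosome 7), whose protein moves from the cytosol to the mitochondrion on activation, lay at 10.8, 11.4 and 14.4 CPM in WT (lowest, median and highest) and at 11.8, 14.2 and 15.9 CPM in KI. WT 1 stood above the other WT libraries and KI 1 below the other KI libraries, so the groups overlapped through these 2. The log2 fold change of Bax was 0.26 (SE 0.09, adjusted p = 0.0825). It passed the threshold without WT 1 (0.32, adjusted p = 0.0282) and without KI 1 (0.30, adjusted p = 0.0440).

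Bak1 (Gene ID 12018, chromosome 17), which encodes the effector that resides in the mitochondrial outer membrane, lay at 12.5, 15.2 and 15.9 CPM in WT. In KI it lay at 15.0, 16.9 and 18.5 CPM, with 5 of 6 KI libraries above every WT library and KI 4 inside the WT range. On the log2 scale KI exceeded WT by 0.21 (SE 0.07, adjusted p = 0.0960). Bok (Gene ID 51800, chromosome 1) encodes a relative of BAX and BAK that is held at the endoplasmic reticulum. Its WT levels were 2.80, 3.61 and 4.43 CPM. In KI its levels were 3.63, 4.56 and 7.48 CPM, highest in KI 3 and KI 6. The log2 fold change was 0.51 (SE 0.18, 95% interval 0.11 to 0.91, adjusted p = 0.0980), the second highest of the 10, and it did not pass.

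The BH3-only genes did not share 1 direction. Bcl2l11 (Gene ID 12125, chromosome 2, 128126038 to 128162547, plus strand) encodes BIM, which binds all antiapoptotic members. Its levels in WT were 7.08 CPM at the lowest, 9.67 at the median and 14.9 at the highest, and in KI 5.56, 7.42 and 8.74 CPM. KI 4 and KI 5 lay below every WT library, and WT 4 was the highest. Means were 10.2 ± 2.66 CPM in WT and 7.25 ± 1.17 CPM in KI (SD, n = 6 each), with a log2 fold change of -0.49 (SE 0.16, 95% interval -0.84 to -0.15, adjusted p = 0.0697). Without WT 4 it was -0.35 (adjusted p = 0.105), and without WT 1, the lowest WT library, it passed the threshold (-0.58, adjusted p = 0.0324). Bcl2l11 shares its strand with the overlapping gene Acoxl, whose counts came to 1.95% of its own.

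Bad (Gene ID 12015, chromosome 19), a BH3-only gene whose protein is switched off by phosphorylation, varied least between libraries of a group. It lay at 10.0, 10.5 and 10.9 CPM in WT and at 10.8, 11.8 and 12.6 CPM in KI, and only KI 3 fell inside the WT range. The log2 fold change was 0.16 (SE 0.06, adjusted p = 0.0852). Bid (Gene ID 12122, chromosome 6), which links death receptors to mitochondria after cleavage by caspase 8, was the scarcest member at 1.22 to 2.21 CPM in WT and 1.66 to 2.40 CPM in KI. For Bid the log2 fold change was 0.23 (SE 0.18, 95% interval -0.16 to 0.62, adjusted p = 0.448). Bmf (Gene ID 171543, chromosome 2), whose protein is released from the cytoskeleton in cells that lose attachment, lay at 2.36 to 4.78 CPM in WT and 2.37 to 4.22 CPM in KI (0.07, SE 0.19, 95% interval -0.34 to 0.47, adjusted p = 0.866). The intervals of Bid and Bmf leave room for changes of the size seen in Bcl2l1.

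**Figure D2:**
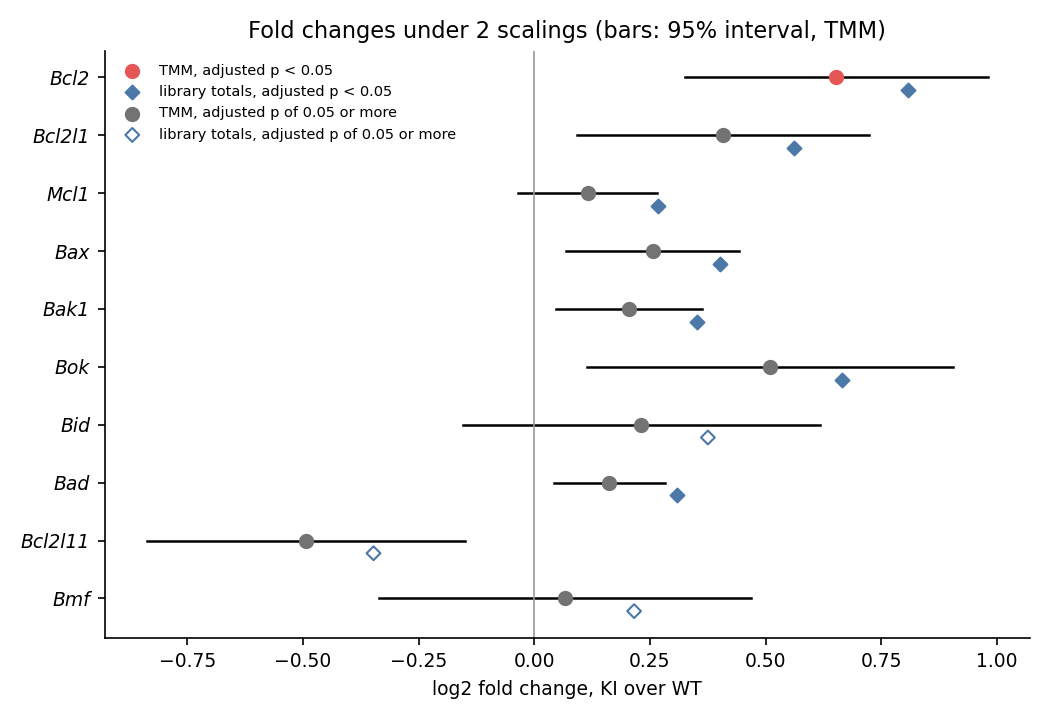
Log2 fold change of each member, KI over WT (horizontal axis), under TMM (circles with 95% intervals) and under scaling by library totals alone (diamonds). The diamonds sit 0.14 to 0.16 to the right of the circles, and 7 of them pass the threshold where 1 circle does.

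The calls depended on scaling more than the order of the members did. With library totals alone 7 of 10 members were called, all higher, where 20.2% of all genes tested were called. That scaling raised the median of all genes tested by 0.15, and the 10 members by 0.14 to 0.16. Relative to the median of all genes, Bcl2 was then at 0.65, Bok at 0.51, Bcl2l1 at 0.40 and Bcl2l11 at -0.51. Bcl2l11 stayed negative and Bcl2 positive under every scaling tried. DESeq2 called Bcl2 higher and Bcl2l11 lower (-0.50, adjusted p = 0.0251), with 13.1% of all genes called. The voom test with quality weights called Bcl2 and Bax (0.29, adjusted p = 0.0316) higher and Bcl2l11 lower (-0.49, adjusted p = 0.0404), with 14.6% of all genes called. Over all 23 alternatives the adjusted p ranged from 0.00116 to 0.207 for Bcl2, from 0.0251 to 0.2905 for Bcl2l11 and from 0.0170 to 0.407 for Bax.

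Ratios of 2 members within a library do not depend on how libraries are scaled. All 45 pairs were compared, with no test since the members were chosen with results known. Each ratio was written in the direction that made the KI median the lower one. The libraries of the groups did not overlap in 2 pairs, and both included Bcl2l11. Bcl2l11 over Bcl2 was 0.452, 0.594 and 1.24 in WT (lowest, median and highest) and 0.208, 0.335 and 0.377 in KI. Every KI library thus had fewer Bcl2l11 counts per Bcl2 count than every WT library. The same ratio with any other gene tested over or under Bcl2 did not overlap for 24.1% of genes. With Bcl2l11 the share was 6.56% of genes, and with Bok it was 2.56%. Among the members, 1 ratio with Bcl2, 1 with Bok and 2 with Bcl2l11 did not overlap. For Bcl2 this is a lower share than over all genes tested. Bcl2l11 over Bok was 2.04, 2.94 and 3.68 in WT and 1.15, 1.30 and 2.00 in KI. Bax over Bcl2, a ratio often quoted for this family, was 0.555, 0.802 and 1.24 in WT and 0.498, 0.57 and 0.775 in KI, and the groups overlapped.

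**Figure D3:**
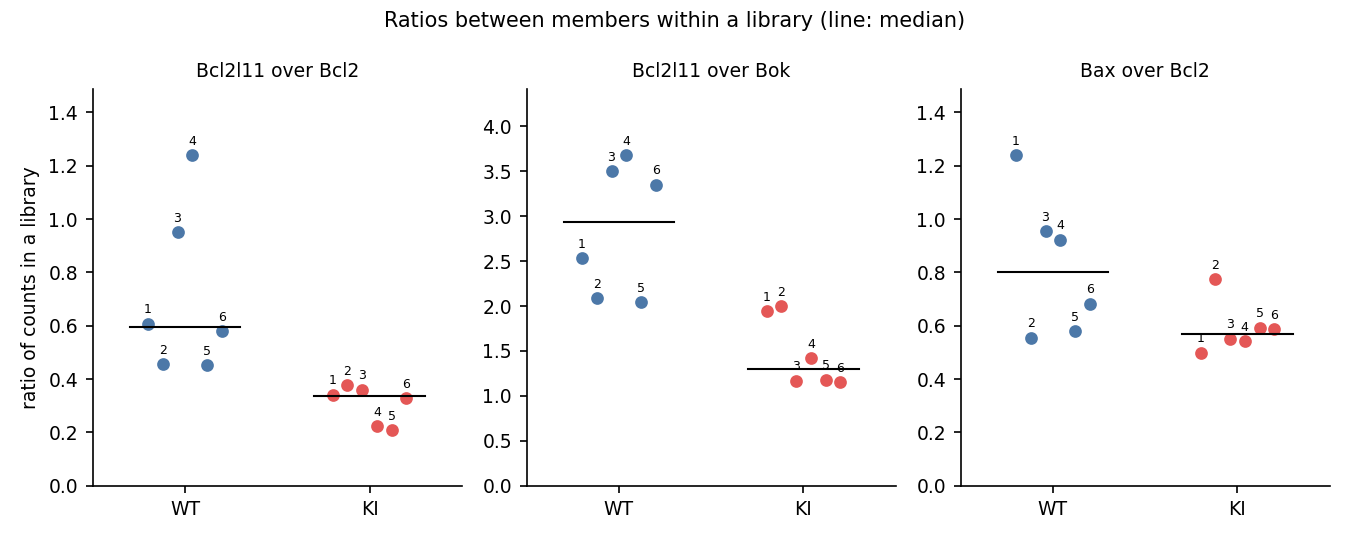
Ratio of the counts of 2 members in each of the 6 WT and 6 KI libraries (points, numbered by replicate), with the group median as a line. For Bcl2l11 over Bcl2 all KI points (0.208 to 0.377) lie below all WT points (0.452 to 1.24), while Bax over Bcl2 overlaps.

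Levels were compared between genes per kilobase (1000 bases) of exon, with exon lengths joined over all transcripts of GENCODE M21, build GRCm38. Mcl1 was by far the most abundant at 50.4 ± 5.75 CPM per kilobase in WT (SD, n = 6), followed by Bax at 7.52 ± 0.85. Bak1 (6.07 ± 0.58) and Bcl2l1 (5.96 ± 0.99) came next and overlapped each other, and Bad followed at 4.09 ± 0.14. Bcl2l1, which reached 7.58 in WT, also overlapped Bax, which was 6.82 at its lowest. The lower 5 were Bok (1.97), Bcl2 (1.68), Bcl2l11 (1.27), Bmf (0.688) and Bid (0.477), and each overlapped the next in WT.

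In KI the order per kilobase was the same except that Bcl2l1 (7.91 ± 1.87) stood above Bak1 (6.996 ± 0.54), and the ranges of that pair overlapped, as did those of Bcl2l1 and Bax. Bcl2 and Bcl2l11, which overlapped in WT (1.27 to 2.18 and 0.882 to 1.85 CPM per kilobase), were apart in KI (2.10 to 3.08 and 0.693 to 1.09). With the longest coding transcript as length, Bcl2l1 and Bad moved above Bak1 in WT. Counts covered introns too, so a gene with long introns such as Bcl2 can carry reads of unspliced RNA in this measure. The same counts gave the fold changes and the ratios above, and the part of unspliced RNA in them was not tested.

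**Figure D4:**
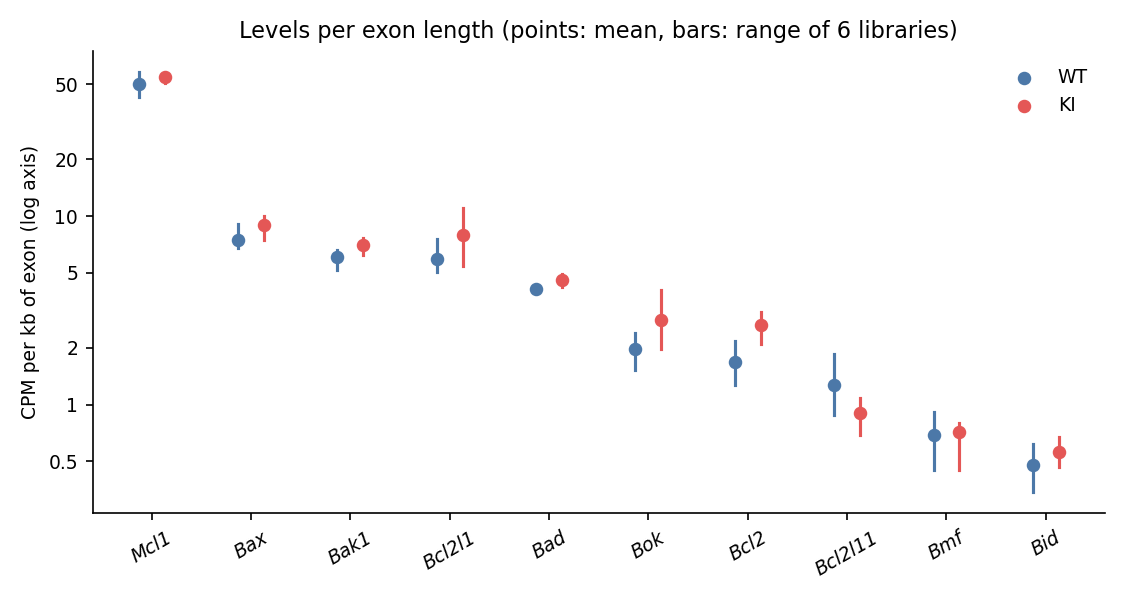
Level of each member in CPM per kilobase of exon (vertical log axis) in WT and KI, as mean (points) and range of 6 libraries (bars), in the WT order. Mcl1 stands apart near 50.4, and the bars of Bcl2 and Bcl2l11 overlap in WT but not in KI.

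Members were also compared with each other across libraries after the group means were removed, over 12 libraries. In 45 pairs, 0 correlations passed an adjusted p of 0.05 by permutation within groups, and 4 had an unadjusted p under 0.05. The strongest was negative, between Mcl1 and Bid (Pearson r = -0.75, permutation p = 0.0217, adjusted p = 0.402, Spearman rho = -0.68, permutation p = 0.0421, adjusted p = 0.474), and r was -0.56 without the 2 libraries farthest from the Mcl1 median. Bax and Bcl2l11 gave the next (Pearson r = -0.70, permutation p = 0.0205, adjusted p = 0.402, Spearman rho = -0.73, permutation p = 0.0116, adjusted p = 0.426), with r at -0.38 without the 2 farthest libraries. No relation among members passed after correction.

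The 3 named genes whose deviations from the group means were most like those of Bcl2, among 11517 candidates and over 12 libraries, were Xpo5, Crcp and Ctnnbip1. Xpo5 encodes exportin 5, Crcp a subunit of RNA polymerase III and Ctnnbip1 an inhibitor of beta-catenin. Their likeness to Bcl2 was a Pearson r of 0.93, 0.91 and 0.90 (Spearman rho 0.94, 0.90 and 0.92), given without a p because they were picked as the highest. None of the 3 was called between KI and WT (adjusted p = 0.964, 0.749 and 0.593).

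The other relatives of the family were a list of 15 genes, of which 11 passed the filter. By edgeR 0 of these were higher, 1 was lower and 2 had an unadjusted p under 0.05, and their median log2 fold change was -0.01 against 0.01 over all genes tested. For this list and those below, edgeR called 8.75% of all genes tested, and 25.8% had an unadjusted p under 0.05. The lower gene was Hrk, which encodes a BH3-only protein known from neurons and fell from 0.549 ± 0.196 to 0.269 ± 0.087 CPM (SD, n = 6 each, log2 fold change -1.02, SE 0.29, adjusted p = 0.0461). Hrk is scarce in these libraries, and it kept its call in 2 of 12 fits that left out 1 library, with a highest adjusted p of 0.0933 (without WT 5), and lost it under library totals (-0.88, adjusted p = 0.0581). Bnip3, the most abundant of the list and a gene of mitochondrial clearance, was at -0.07 (SE 0.09, adjusted p = 0.668). Bcl2a1a, Bcl2l10, Bcl2l14 and Bcl2l15 did not pass the filter, with at most 21.3 counts in a library, and Bcl2a1a has near-identical copies with which it can share reads.

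Downstream of the pore, the list of 14 apoptosome and inhibitor of apoptosis genes had 1 higher and 0 lower by edgeR and 4 with an unadjusted p under 0.05, with a median of -0.002. The higher gene was Birc5, which encodes survivin, a protein of dividing cells, and rose from 0.947 ± 0.368 to 2.27 ± 0.94 CPM (SD, n = 6 each, log2 fold change 1.25, SE 0.30, adjusted p = 0.0223). It kept its call in 9 of 12 fits that left out 1 library, with a highest adjusted p of 0.0516 (without WT 2). Cycs, the cytochrome c gene and the most abundant of the list, was at 333 ± 23.0 CPM in WT and 290.2 ± 25.6 CPM in KI (-0.20, SE 0.07, adjusted p = 0.0753).

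Partners and turnover factors of the members were 24 genes in the table, with a median of -0.02. Of these, 1 was higher and 3 were lower, where 8.75% of all genes tested were called. Becn1, whose protein Beclin 1 is bound by BCL2, rose by a log2 fold change of 0.17 (SE 0.05, adjusted p = 0.0419). Akt2, a kinase gene of insulin signalling whose family phosphorylates BAD, fell by 0.24 (SE 0.06, adjusted p = 0.0282), from 130 ± 9.93 to 110 ± 7.30 CPM (SD, n = 6 each). Ppp3cb, a catalytic subunit gene of calcineurin, which dephosphorylates BAD, fell by 0.20 (SE 0.06, adjusted p = 0.0444). Vdac3, a channel gene of the mitochondrial outer membrane, fell by 0.16 (SE 0.05, adjusted p = 0.0431). These calls were not firm, kept in 2 of 12 fits that left out 1 library for Becn1, Ppp3cb and Vdac3 and in 6 of 12 for Akt2. The highest adjusted p was 0.0942 for Becn1 (without KI 4), 0.104 for Ppp3cb (without WT 6), 0.111 for Vdac3 (without WT 3) and 0.0715 for Akt2 (without WT 2). Under scaling by library totals Akt2, Ppp3cb and Vdac3 were not called, with folds of -0.09, -0.06 and -0.01.

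Of the 15 transcriptional regulators, 1 was higher and 2 were lower, with a median of 0.05, where 8.75% of all genes tested were called. Foxo4, of the FOXO family whose motif stands in the Bcl2l11 window shown above, fell from 53.6 ± 2.35 to 45.1 ± 1.87 CPM (SD, n = 6 each, log2 fold change -0.25, SE 0.05, adjusted p = 0.00692), and kept its call in 12 of 12 fits that left out 1 library. Under scaling by library totals it was not called (-0.10, adjusted p = 0.173). Foxo1 and Foxo3, chosen after their values were seen, were at 0.02 (SE 0.11, adjusted p = 0.919) and 0.01 (SE 0.10, adjusted p = 0.955). Any link of these FOXO genes to the motif or the level of Bcl2l11 was not tested. E2f1, a driver of the cell cycle, rose from 1.86 ± 0.52 to 3.71 ± 1.28 CPM (SD, n = 6 each, 0.99, SE 0.23, adjusted p = 0.0217), and missed the threshold in 1 of 12 such fits (0.0514 without WT 6). Stat5b, a cytokine signal transducer known to act on Bcl2l1, fell by 0.24 (SE 0.06, adjusted p = 0.0223), kept its call in 8 of 12 such fits with a highest adjusted p of 0.0624 (without WT 6), and was not called under library totals (-0.09, adjusted p = 0.184). Without KI 3, 4 and 5 none of the called genes of the related lists passed, where 0.563% of all genes tested were called by edgeR. Their adjusted p values ran from 0.0523 for Foxo4 (-0.29) and 0.0599 for E2f1 (1.21) to 0.3505 for Ppp3cb (-0.12).

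**Figure D5:**
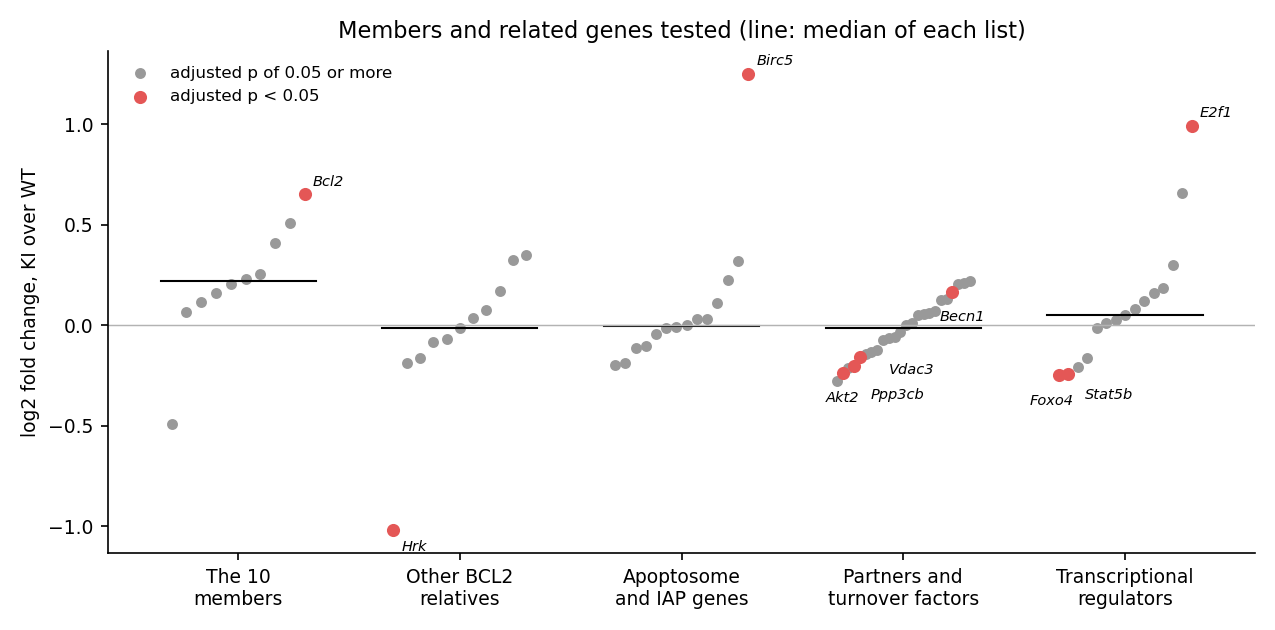
Log2 fold change, KI over WT (vertical axis), of the 10 members and of the genes tested in 4 related lists (points), with the list median as a line and genes past an adjusted p of 0.05 in red. The member median is 0.22, while the medians of the related lists lie between -0.02 and 0.05.

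Promoter windows of all 10 members were searched on both strands for motifs of some factors in the regulator list and for the GC box. Other factors of that list, among them Gata4, Nfkb1 and Rela, had no motif searched. The members have 16 windows, since some have 2 or 3. GGGCGG stood in 8 of these 16, from 7 members (50%), and in 32.7% of all 32851 windows. FOXO (GTAAACA) was found in 1 of the 16, for Bcl2l11, and in 3.17% of all windows. E2F (TTTNGCGC) was found in 1 of the 16, for Bcl2l1, and in 1.13% of all. The E-box CACGTG, bound by MYC among others, was found in 1 of the 16, for Bax at bases -9 to -4, and in 6.02% of all. STAT (TTCNNNGAA), CREB (TGACGTCA) and the p53 response element were found in 0 of the members' windows, and in 7.02%, 1.55% and 0.0639% of all windows.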

How the data were processed

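The 12 heart RNA libraries were made with a stranded kit for messenger RNA, per the labels' protocols. The submitters' processing notes name cutadapt 2.5 and STAR 2.7.2b. The authors deposited expected counts without normalization, obtained with featureCounts 1.6.4 per the file headers. Per these headers, counting took the reverse strand over the full span of each RefSeq gene of GRCm38.p6, introns included, and divided reads with several positions or genes into fractions. In each library, 42.4% to 47.5% of the values above 0 were therefore fractional.

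The fit was planned on counts as deposited, but expected counts were rounded to whole numbers first, and the unrounded fit was kept as an alternative added after the data were seen. Low genes were removed by filterByExpr (edgeR 4.0.16, minimum count 10, minimum total 15), and the rest were scaled by TMM and compared, KI against WT, with the quasi-likelihood test (R 4.3.3) and no covariate. SE is the fold change over the root of its F statistic, and log2 CPM carries a prior count of 2. The test was checked on simulated data. Alternatives were RLE factors, library totals, no filter, CPM above 1 in 6 libraries, DESeq2 1.42.0, voom (limma 3.58.1), a replicate block, no mitochondrial genes, KI 3 to 5 left out or alone, and each library left out. Library measures and pair correlations used exact or 100000 permutations. The libraries' labels do not say that each came from a separate animal, so p values measure the spread between these samples.

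The members, gene lists and motifs were chosen with earlier results of these data known. All members are described. Of each related list, up to 4 called genes with the smallest adjusted p are named, made up to 2 with the most abundant, and for each member called the 3 genes most like it whose average log2 CPM is 1 or more, unnamed models left out. Foxo1 and Foxo3 were added. Promoter windows are from RefSeq, matched for 10 of 10 members by symbol.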

Additional observations from a re-analysis of the deposited data

Results flagged for a closer look

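Bmf in KI 5 lay at 2.37 CPM, apart from the other 5 KI libraries, which lay between 3.78 and 4.22 CPM. Its gap to the nearest library was 0.761 of the range of the group, above Dixon's 95% critical value for 6 samples. Each of the 10 members was examined in both groups, 20 combinations in all, and this was the 1 found, where chance flags about 1 in 20.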

How the results depend on the processing

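The rise of Bcl2 kept its direction in all 23 alternatives (log2 fold change 0.51 to 0.81) and its call in 21. It missed the threshold without KI 3, 4 and 5 and with a replicate block. Replicate numbers did not pair the samples (same-number correlations of deviations -0.278 to 0.035, with 0 of 6 over 0.1 and 0 of 12 libraries closest to their own number). The block gave Bcl2 a fold of 0.68 (adjusted p = 0.0618) and 0 members called by edgeR. It gave 220 higher and 212 lower genes against 688 and 677, or 2.77% of all genes tested against 8.75%. With the block, all 4 related lists had 0 called in either direction. Bmf was reversed to -0.0615 with KI 3, 4 and 5 alone and to -0.0328 without WT 5 (-0.0328 to 0.1689 over the libraries left out), and the cause was not tested.

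Scaling by library totals gave 2957 higher and 191 lower genes, 93.9% of the calls higher against 50.4%, 7 members higher, and, in the lists, 0 relatives lower, 3 apoptosome genes higher, 5 partners higher and 0 lower, and 4 regulators higher and 0 lower. DESeq2 called 1067 genes lower, 1 member lower, 2 relatives lower, 2 apoptosome genes lower and 3 regulators higher. The voom test called 1265 genes lower, 2 members higher and 1 lower, 2 relatives lower, 2 apoptosome genes higher and 2 lower, 5 partners lower and 3 regulators higher. Without KI 3, 4 and 5, 68 genes were higher and 22 lower, with fewer samples. That was 0.563% of all genes tested, and 0 members and 0 genes of the 4 lists were called by edgeR. With those 3 alone, 1195 genes were lower, and the lists had 0 apoptosome genes higher and 2 lower, 0 partners higher, and 0 regulators higher and 4 lower. RLE factors left 0 partners higher. No filter left 0 relatives lower, 0 partners higher and 1 lower, the CPM filter 0 relatives lower, and leaving out mitochondrial genes 1 partner lower. The unrounded fit changed no call among the members. The cause of these differences was not tested.

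With each library left out in turn, between 390 (without WT 6) and 714 genes were higher and between 338 (without KI 3) and 833 lower, with 1 to 3 members higher and 0 to 1 lower, 0 higher and 0 to 1 lower relatives, 0 to 2 higher and 0 to 2 lower apoptosome genes, 0 to 1 higher and 0 to 3 lower partners, and 0 to 3 higher and 1 to 2 lower regulators. Bid drew 45 to 103 counts in a library, the fewest of the members, and what share of its SE comes from depth was not tested.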
